A study of Mus musculus with 4 samples.

Results

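The 10 genes described here encode transcription factors that mark progenitor cells of the dorsal neural tube and its roof plate: Pax3, Pax7, Msx1, Msx2, Gsx1, Gsx2, Dbx1, Dbx2, Lmx1a and Zic1. They were chosen by name, and all 10 were among the 24971 genes of the count files and among the 10757 with enough counts to be tested. Neural tubes were taken at E12.5 from mouse embryos on a C57BL/6 background, and their RNA was sequenced. There were 2 libraries labelled Lbx1Δ/Δ and 2 labelled WT, and each was a pool of tubes from litter mates that shared a genotype. No group carried any other allele or treatment per the labels, which do not say what part of Lbx1 the Δ allele lacks, in which cells, or what the replicate numbers 1 and 2 mark. Levels are CPM (counts scaled to the library total), and differences are on the log2 scale with their standard errors (SE).

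Progenitors line the central canal of the neural tube and are sorted into bands along its dorsal to ventral axis. Each band expresses its own set of transcription factors and gives rise to its own classes of neurons. The roof plate, a strip of non-neuronal cells at the dorsal midline, secretes BMP and Wnt proteins that pattern the dorsal bands, and Msx1, Msx2 and Lmx1a act in or next to it. Pax3, Pax7 and Zic1 span much of the dorsal side, Gsx1 and Gsx2 mark bands in its middle that give rise to neurons expressing Lbx1, and Dbx1 and Dbx2 mark the border with the ventral side. Lbx1 itself acts in newborn neurons, downstream of these progenitors.

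Library totals ranged from 16853984 to 20579803 counts. Lbx1, the targeted gene, had 1946 and 6520 counts in the libraries labelled Lbx1Δ/Δ, against 819 and 1379 counts in WT, which goes against the label of those libraries unless the deletion spares the counted part, and every direction below compares libraries as labelled. Reads had been counted per RefSeq transcript, and genes with several transcripts can be counted in part only: Pax6, a progenitor gene with 8 accessions, was listed at 0 in all 4 libraries. Of the 10 dorsal genes, 9 had a single accession. Pax3 had 2, of which 1 held all the counts, so its level is uncertain. The counts per gene and library ran from 60 to 10431. Msx1 overlaps the antisense gene Msx1os, and Zic1 overlaps Zic4, and with the strand setting not given in the sources used here such reads cannot be told apart. Markers of other tissues were also present. Summed keratin and other surface ectoderm genes had 123 and 63.4 CPM in the libraries labelled Lbx1Δ/Δ and 158 and 99.7 CPM in WT libraries 1 and 2, and summed muscle genes had 777 and 164 CPM, against 900.2 and 451 CPM.

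Lmx1a, Msx1 and Msx2, the 3 factors of the roof plate and its flanks, were all lower in the libraries numbered 2 than in those numbered 1, in both genotypes. The same held for Pax7 and Dbx2, and for 4065 of all 10757 genes tested. The 250 bases before the annotated start of Lmx1a, Msx1 and Msx2 (RefSeq, build GRCm38.p6) are shown. These 3 genes were chosen after their values were seen, and a shared regulation was not tested. Capitals mark matches, on either strand, to TAATTA, a core sequence of homeodomain proteins, and to CCAAT, the CCAAT box.
Lmx1a, chr1:167689308-167689557, + strand: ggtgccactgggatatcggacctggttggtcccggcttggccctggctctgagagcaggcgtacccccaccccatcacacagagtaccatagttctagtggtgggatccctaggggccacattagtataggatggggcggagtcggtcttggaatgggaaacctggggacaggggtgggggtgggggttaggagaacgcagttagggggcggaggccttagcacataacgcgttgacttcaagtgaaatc
Msx1, chr5:37824586-37824835, - strand: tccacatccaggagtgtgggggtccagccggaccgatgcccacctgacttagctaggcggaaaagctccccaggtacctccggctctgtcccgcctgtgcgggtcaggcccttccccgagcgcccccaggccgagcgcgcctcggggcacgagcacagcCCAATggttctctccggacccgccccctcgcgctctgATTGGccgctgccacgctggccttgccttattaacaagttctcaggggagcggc
Msx2, chr13:53472781-53473030, - strand: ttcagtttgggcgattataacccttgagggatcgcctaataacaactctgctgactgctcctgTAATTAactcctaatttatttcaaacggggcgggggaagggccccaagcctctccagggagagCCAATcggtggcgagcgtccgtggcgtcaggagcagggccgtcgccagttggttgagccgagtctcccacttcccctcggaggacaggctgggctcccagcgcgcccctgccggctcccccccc
TAATTA occurred in the window of Msx2 and in 4.84% of the 32851 promoter windows of the same length. CCAAT occurred 2 times in that of Msx1 and 1 time in that of Msx2, and in 33.8% of all windows. Neither was in the Lmx1a window. GGCGCC, a GC-rich sequence bound by SMAD proteins of the BMP pathway, and CTTTGAT, a core sequence of TCF/LEF proteins of the Wnt pathway, were in none of the 3, against 9.59% and 3.21% of all windows. No 2 matches overlapped. Among the 9 dorsal genes with a window, GGCGCC was in those of Gsx1 and Zic1. CCAAT also occurred 2 times each in the windows of Dbx1 and Zic1.

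Lmx1a, a LIM homeodomain factor needed to form the roof plate, fell furthest of the 10 genes in the libraries numbered 2. It had 4.69 CPM in library 2 labelled Lbx1Δ/Δ, against 14.7 CPM in library 1, and 6.31 CPM in WT library 2, against 16.5 CPM in WT library 1. Both libraries numbered 2 lay below both numbered 1, while the genotypes overlapped. The fitted difference of number 2 minus number 1 was −1.53 (SE 0.20, edgeR adjusted p = 2.39e-05), a 2.89-fold lower level. Between genotypes, Lmx1a averaged 9.71 ± 7.10 CPM in the libraries labelled Lbx1Δ/Δ and 11.4 ± 7.22 CPM in WT (SD, n = 2 each), a fitted difference of −0.24 (SE 0.73, edgeR adjusted p = 0.9998). Within numbers 1 and 2 it differed by −0.17 and −0.43. In pools of whole tubes, fewer cells of a type and less RNA per cell cannot be told apart.

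Msx2, a homeobox factor that BMP signals induce in the roof plate and dorsal progenitors, had 16.5 CPM in library 2 labelled Lbx1Δ/Δ, against 39.5 CPM in library 1, and 26.0 CPM in WT library 2, against 53.5 CPM in WT library 1. The order of the 4 libraries was set first by number and then by genotype, with the library labelled Lbx1Δ/Δ the lower within each number. The number difference was −1.16 (SE 0.15, edgeR adjusted p = 1.59e-05), a 2.24-fold lower level. Msx2 averaged 28.0 ± 16.3 CPM in the libraries labelled Lbx1Δ/Δ and 39.7 ± 19.4 CPM in WT (SD, n = 2 each), a fitted genotype difference of −0.51 (SE 0.56, edgeR adjusted p = 0.9998), with −0.43 and −0.66 within numbers 1 and 2. It was the lowest genotype value among the 10 genes and was smaller than its standard error.

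Msx1, the paralogue of Msx2 with a like expression at the dorsal midline, had 9.79 CPM in library 2 labelled Lbx1Δ/Δ, against 13.9 CPM in library 1, and 5.96 CPM in WT library 2, against 16.3 CPM in WT library 1. The number difference was −0.99 (SE 0.22, edgeR adjusted p = 0.00253). It was uneven between the genotypes, with −0.51 in the libraries labelled Lbx1Δ/Δ and −1.45 in WT, a contrast that was not tested. Leaving out a WT library, which leaves the libraries labelled Lbx1Δ/Δ to give the number difference, brought it to −0.54. Msx1 averaged 11.9 ± 2.92 CPM in the libraries labelled Lbx1Δ/Δ and 11.1 ± 7.33 CPM in WT (SD, n = 2 each), a genotype difference of 0.07 (SE 0.55), but went opposite ways within the numbers, with −0.23 for number 1 and 0.71 for number 2. WT library 2 held the lowest Msx1 level and WT library 1 the highest.

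**Figure D1:**
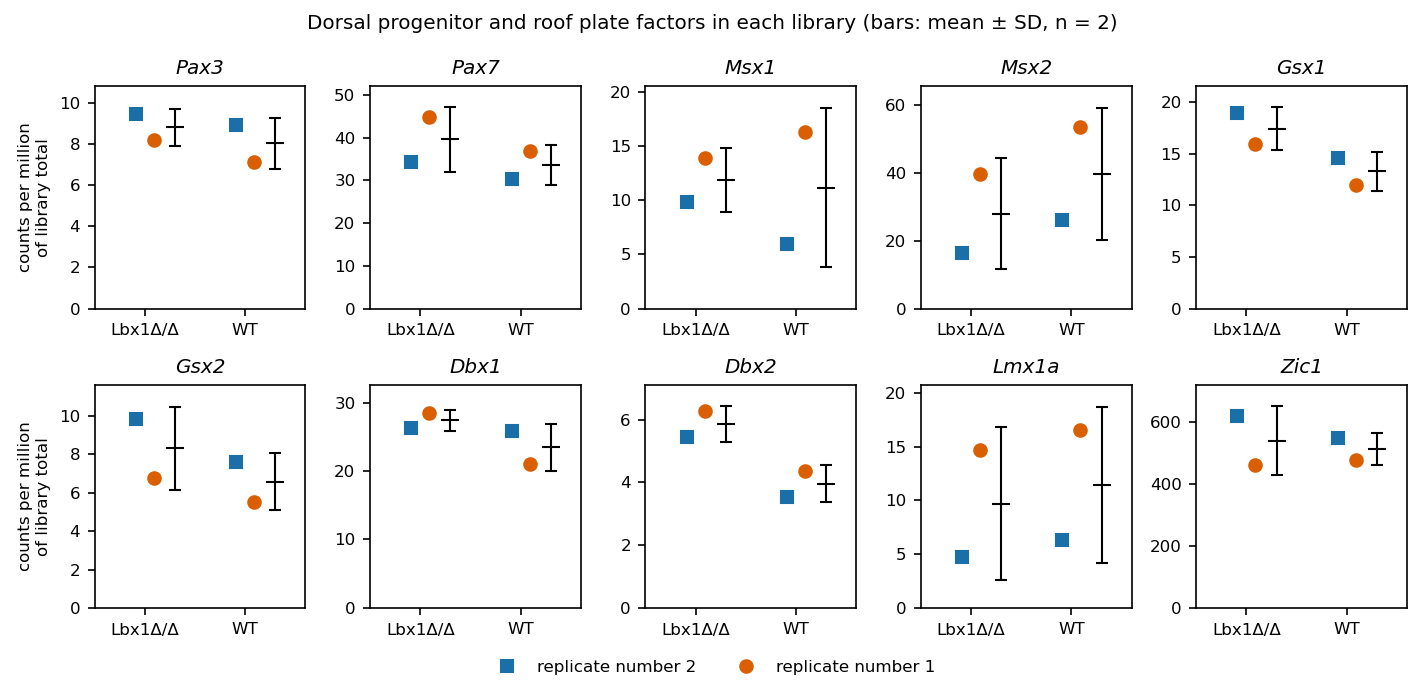
CPM of each gene, relative to the library total (vertical axes, from 0), in the libraries labelled Lbx1Δ/Δ and in WT. Squares are replicate number 2, circles number 1, and bars give the mean ± SD of n = 2. Msx1, Msx2, Lmx1a and Pax7 are lower in both libraries numbered 2 than in both numbered 1, as are 31.9% of all genes tested. Pax3, Gsx2 and Zic1 are higher in both, as are 34.1%. Gsx1, Dbx1 and Dbx2 are higher in both libraries labelled Lbx1Δ/Δ than in both WT libraries, as are 11.3%.

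Zic1, a zinc finger factor of dorsal progenitors and of the nearby mesenchyme, was the most abundant of the 10 and went the other way. It had 619 CPM in library 2 labelled Lbx1Δ/Δ, against 461 CPM in library 1, and 551 CPM in WT library 2, against 478 CPM in WT library 1. The number difference was 0.30 (SE 0.10, edgeR adjusted p = 0.0295), a 1.23-fold higher level, which did not pass in a fit on number alone (adjusted p = 0.0605). It was 0.43 within the libraries labelled Lbx1Δ/Δ and 0.21 within WT, and leaving out a library labelled Lbx1Δ/Δ left 0.20. Zic1 averaged 540 ± 112 CPM in the libraries labelled Lbx1Δ/Δ and 514 ± 51.8 CPM in WT (SD, n = 2 each), a genotype difference of 0.06 (SE 0.21) that was −0.05 within number 1 and 0.17 within number 2.

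Pax7 and Pax3 encode paired-domain factors of the dorsal neural tube, and both are also expressed in muscle progenitors outside it. Pax7 had 34.2 CPM in library 2 labelled Lbx1Δ/Δ, against 44.9 CPM in library 1, and 30.2 CPM in WT library 2, against 37.0 CPM in WT library 1. Both libraries numbered 2 lay below both numbered 1, with a number difference of −0.36 (SE 0.14) that missed the threshold (edgeR adjusted p = 0.0564). It passed under 3 alternatives, with adjusted p-values of 0.0365 by limma-voom, 0.0484 without the low-count filter and 0.0347 with accessions not summed. It did not pass by DESeq2 (0.154), in a fit on number alone (0.125), under the other scalings (0.0574 to 0.0662) or with a CPM filter (0.0605). Pax3 had 9.43 CPM in library 2 labelled Lbx1Δ/Δ, against 8.17 CPM in library 1, and 8.91 CPM in WT library 2, against 7.14 CPM in WT library 1, a number difference of 0.24 (SE 0.21, edgeR adjusted p = 0.409). The pair thus had fitted values of opposite sign between numbers, of which neither passed. Between genotypes, Pax7 averaged 39.6 ± 7.56 CPM in the libraries labelled Lbx1Δ/Δ and 33.6 ± 4.79 CPM in WT (SD, n = 2 each), a difference of 0.22 (SE 0.25). It was higher in the library labelled Lbx1Δ/Δ within both numbers, by 0.28 and 0.18. Pax3 averaged 8.80 ± 0.891 CPM and 8.03 ± 1.25 CPM in the same groups (SD, n = 2 each), a genotype difference of 0.12 (SE 0.29). Both genes overlapped between genotypes.

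Gsx1 and Gsx2, homeobox factors of the progenitors that give rise to dorsal neurons expressing Lbx1, had higher values in the libraries labelled Lbx1Δ/Δ within both numbers. Gsx1 had 15.9 and 18.9 CPM in libraries 1 and 2 labelled Lbx1Δ/Δ, against 12.0 and 14.6 CPM in WT libraries 1 and 2. The groups did not overlap. The counting intervals of the nearest pair, library 1 labelled Lbx1Δ/Δ and WT library 2, did overlap, at 14.1 to 17.9 CPM and 12.9 to 16.6 CPM (exact Poisson, 95%, counting error only). The fitted genotype difference was 0.38 (SE 0.25, edgeR adjusted p = 0.9998), with 0.42 and 0.37 within numbers 1 and 2. Gsx2 had 6.78 and 9.85 CPM in the libraries labelled Lbx1Δ/Δ, against 5.54 and 7.61 CPM in WT, a genotype difference of 0.32 (SE 0.35), with 0.29 and 0.37 within numbers 1 and 2. Its genotypes overlapped. Between numbers, Gsx1 differed by 0.25 (SE 0.17, edgeR adjusted p = 0.273) and Gsx2 by 0.48 (SE 0.23, edgeR adjusted p = 0.116). Gsx2 was higher in both libraries numbered 2 than in both numbered 1, whereas the numbers overlapped for Gsx1.

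Dbx1 and Dbx2, homeobox factors at the border of the dorsal and ventral sides, had groups that did not overlap between genotypes. Dbx1, which marks progenitors of V0 neurons and of the adjacent dorsal class, had 28.5 and 26.3 CPM in the libraries labelled Lbx1Δ/Δ, against 21.0 and 25.9 CPM in WT. The counting intervals of the nearest pair, library 2 labelled Lbx1Δ/Δ and WT library 2, overlapped for most of their length, at 24.0 to 28.9 CPM and 23.5 to 28.4 CPM. The fitted genotype difference was 0.21 (SE 0.23, edgeR adjusted p = 0.9998). It came to 0.44 within number 1 and 0.02 within number 2, and WT library 1 held the lowest of the 4 levels. Dbx2, which spans a wider band, had 6.26 and 5.46 CPM in the libraries labelled Lbx1Δ/Δ, against 4.37 and 3.54 CPM in WT. Its genotype difference of 0.55 (SE 0.33, edgeR adjusted p = 0.9998) was the highest among the 10 genes, with 0.52 and 0.62 within numbers 1 and 2. With 108 and 92 counts in the libraries labelled Lbx1Δ/Δ, against 90 and 60 counts in WT, counting error alone gave intervals of 4.40 to 6.69 CPM for library 2 labelled Lbx1Δ/Δ and 3.52 to 5.38 CPM for WT library 1, the nearest pair, which overlap. Between numbers, Dbx1 differed by 0.08 (SE 0.16) and Dbx2 by −0.27 (SE 0.28), with edgeR adjusted p-values of 0.753 and 0.490. The value of Dbx1 was −0.11 within the libraries labelled Lbx1Δ/Δ and 0.30 within WT, and it turned to −0.15 or −0.14 when WT library 1 or 2 was left out.

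Over the 10 genes, 0 passed the genotype test at an adjusted p of 0.05, and the background was the same, with 0% of 10757 genes called by edgeR and 0 by DESeq2 or limma-voom. At an unadjusted p below 0.05 edgeR had 55 genes (0.511%), DESeq2 33 and limma-voom 61, with 0 of the 10 among them by any of these tools. Fitted genotype values were higher in the libraries labelled Lbx1Δ/Δ for 8 genes and lower for 2, with a median of 0.17, against −0.0026 over all genes tested. For 6 genes the value was higher within both numbers, and for Msx2 and Lmx1a it was lower within both, against 3261 and 3114 of all 10757 genes. Gsx1, Dbx1 and Dbx2 were higher without overlap of the genotypes, 3 of 10 against a background of 11.3% in that direction, and 0 of 10 were lower, against 9.31%. On TMM-scaled values the same 3 genes did not overlap, against 10.5%. These p-values rest on the spread among the 4 libraries, to which the difference between numbers adds.

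**Figure D2:**
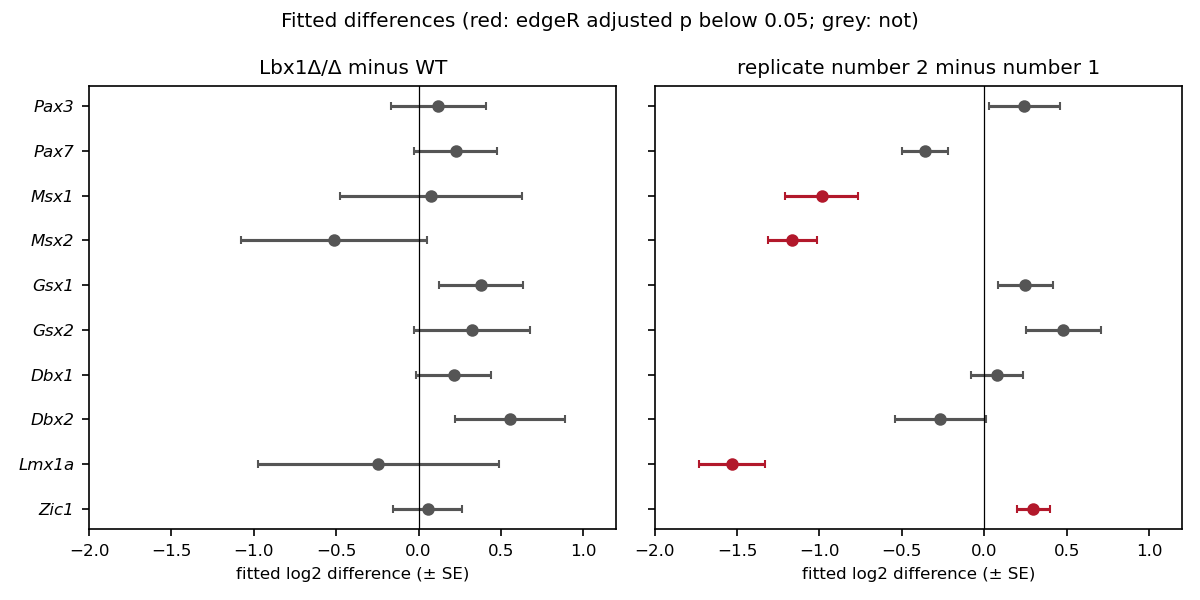
Fitted log2 differences with SE (horizontal axes) for libraries labelled Lbx1Δ/Δ minus WT (left) and number 2 minus number 1 (right), from edgeR. Between genotypes all 10 points are grey, that is not past an adjusted p of 0.05. Between numbers Msx1, Msx2 and Lmx1a are lower and Zic1 is higher past it.

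Between numbers, 4 of the 10 genes passed, 3 lower (Lmx1a, Msx2 and Msx1) and 1 higher (Zic1). The background was 35.6% of all genes in either direction, 17.8% lower and 17.8% higher, so the count of genes called was close to that of genes at large. The median number difference was −0.10, against 0.0001 over all genes. Without overlap between numbers, 4 genes were lower (Lmx1a, Msx1, Msx2 and Pax7), against a background of 31.9%, and 3 were higher (Pax3, Gsx2 and Zic1), against 34.1%. The fit with both terms leaves 1 residual degree of freedom per gene, and its spread is shared across genes.

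The other roof plate genes were likewise divided between numbers. Of 9 tested, 3 passed lower and 1 higher, against 17.8% of all genes in each direction, with a median of −0.33. Rspo3 and Rspo1, secreted proteins that enhance Wnt signalling, fell by 1.64 and 1.53 on the log2 scale, close to the value of Lmx1a, and Bmp5, a BMP ligand, fell by 0.84 (edgeR adjusted p = 3.82e-06, 3.38e-05 and 0.000187). Rspo3 had 140 counts in library 2 labelled Lbx1Δ/Δ, against 551 in library 1, and 234 in WT library 2, against 711 in WT library 1. Lmx1b, a relative of Lmx1a that is also a factor of dorsal excitatory neurons, rose by 1.65 (SE 0.17, adjusted p = 2.72e-06). Wnt1 and Wnt3a, the roof plate Wnt ligands, had values of −0.45 (SE 0.19) and −0.33 (SE 0.22) that did not pass. Gdf7 and Bmp4, which have 2 accessions each, had too few counts to be tested. Between genotypes 0 of the 9 passed, with a median of −0.20 that was −0.19 within number 1 and 0.03 within number 2.

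Among BMP and Wnt response genes, Id2 and Id3, inhibitors of basic helix-loop-helix factors that BMP signals induce, fell by 0.94 and 0.75 in the libraries numbered 2, and Smad6, an inhibitor of BMP signalling that the pathway itself induces, fell by 0.75 (edgeR adjusted p = 2.44e-06, 8.00e-06 and 0.00118). Id4 rose by 0.86 (adjusted p = 1.22e-06). Axin2, a common Wnt target, had a value of −0.13 (SE 0.08) and did not pass. In all, 3 of 8 passed lower and 1 higher between numbers, against 17.8% of all genes in each direction, with a median of −0.14. Between genotypes 0 passed (median −0.03). Id1 and Lef1, which like Pax6 have several transcripts, were listed at 0 in all 4 libraries, so their levels are uncertain.

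Of the other dorsal progenitor factors, 12 were tested and 3 passed between numbers, 1 lower and 2 higher, against 17.8% of all genes in each direction. Atoh1, the proneural factor of the progenitors next to the roof plate, fell by 1.03 (SE 0.23, edgeR adjusted p = 0.00216), whereas Zic4, the neighbour of Zic1, rose by 0.27 (SE 0.09, adjusted p = 0.0350). Zic4 overlaps Zic1, and reads from the overlap cannot be told apart, so the 2 values may not be independent. Olig3, which marks the most dorsal bands, had a value of −0.21 (SE 0.14). Their median was −0.02. Between genotypes 8 of the 12 were higher as fitted (median 0.18, with 0.30 within number 1 and −0.08 within number 2), and 0 passed. Neurog2, a proneural factor of several bands, had the smallest p there (difference 0.47, unadjusted p = 0.0489, edgeR adjusted p = 0.9998), with 1710 and 1516 counts in the libraries labelled Lbx1Δ/Δ, against 1266 and 1246 in WT.

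**Figure D3:**
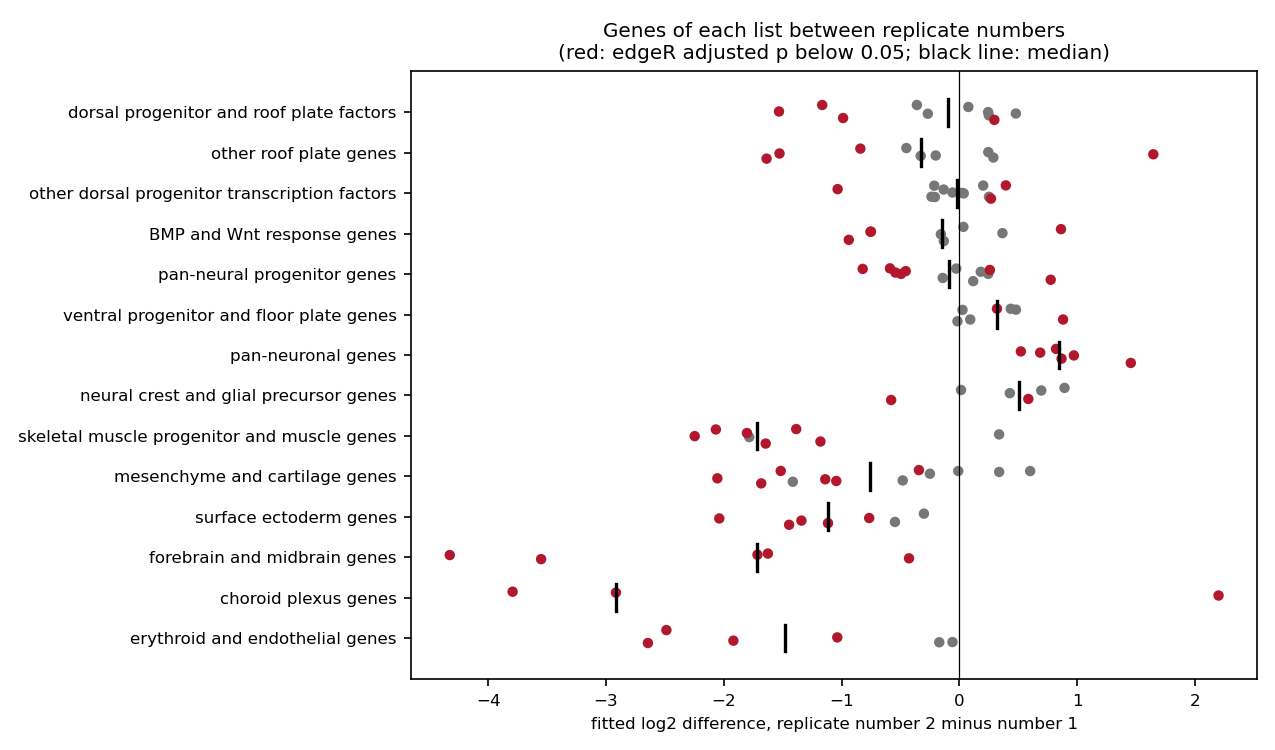
Fitted log2 difference of number 2 minus number 1 (horizontal axis) for each tested gene of each list (rows), with the list's median as a black line and red for an edgeR adjusted p below 0.05. The dorsal progenitor and roof plate factors spread from −1.53 to 0.48 about a median of −0.10, while all 6 tested pan-neuronal genes lie above 0 and the genes of muscle, ectoderm and choroid plexus lie mostly below it.

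Progenitor and tissue markers also differed between numbers, where 17.8% of all genes passed in each direction. Of 12 pan-neural progenitor genes, 5 passed lower and 2 higher, with Mki67, a marker of dividing cells, lower by 0.82 and Fabp7, a radial glia gene, higher by 0.78, and the median was −0.08. All 6 tested pan-neuronal genes passed higher, with a median of 0.84. Of 7 tested ventral progenitor and floor plate genes, 2 passed higher, with a median of 0.32. Genes of surface ectoderm passed lower in 5 of 7, of muscle in 6 of 8, of mesenchyme and cartilage in 6 of 12, and of forebrain and midbrain in 5 of 5. The medians of these lists were −1.12, −1.71, −0.76 and −1.71. The tested forebrain and midbrain gene with the fewest counts had 3 in library 2 labelled Lbx1Δ/Δ, against 12 in library 1. In WT it had 0 in library 2, against 33 in library 1. It met the count filter only through the libraries numbered 1, where it is high, so no weight is put on its direction. Of 3 tested choroid plexus genes 2 passed lower and 1 higher, with a median of −2.92. The higher gene had 23 counts in library 2 labelled Lbx1Δ/Δ, against 0 in library 1, and 18 in WT library 2, against 11 in WT library 1. It met the count filter only through the libraries numbered 2, where it is high, so no weight is put on its direction. Ttr, a choroid plexus gene, had 15 counts in library 2 labelled Lbx1Δ/Δ, against 622 in library 1, and 263 in WT library 2, against 2920 in WT library 1. Msx1 and Msx2 are also expressed in ectoderm and mesenchyme, Lmx1a in the roof of the hindbrain, and Pax3 and Pax7 in muscle progenitors, and the part of these tissues in the number differences was not tested. Between genotypes, Msx2 and Lmx1a had values of −0.51 and −0.24, whereas Msx1, Pax3 and Pax7 had values of 0.07, 0.12 and 0.22. The medians of ectoderm, muscle, mesenchyme, forebrain and midbrain, and choroid plexus genes were −0.34, −0.50, −0.34, −0.72 and −1.70. Within number 1 they were −0.14, −0.21, −0.19, −0.82 and −1.98, and within number 2 −0.80, −1.51, −0.62, −0.43 and −1.58. The genotype medians of pan-neuronal, ventral progenitor, and neural crest and glial precursor genes were 0.18, 0.26 and 0.23. Within number 1 they were 0.19, 0.31 and 0.21, and within number 2 0.22, 0.25 and 0.32. The part of these tissues in the genotype values was not tested. Of the 12 pan-neural progenitor genes, 6 were higher and 6 lower between genotypes as fitted, and 0 passed. Erythroid and endothelial genes had medians of −1.48 between numbers, where 4 of 6 passed lower, and −0.29 between genotypes, and neural crest and glial precursor genes had one of 0.51 between numbers, where 1 of 6 passed higher and 1 lower.

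Per kilobase of transcript, with lengths from GENCODE M21, Zic1 averaged 188 ± 25.8 CPM per kilobase over the 4 libraries (SD) and stood far above the other 9 genes. Msx2 followed at 13.8 ± 6.57, Dbx1 at 12.2 ± 1.51, Gsx1 at 8.67 ± 1.63 and Pax7 at 6.25 ± 1.06. Msx1 was at 5.94 ± 2.36, Gsx2 at 4.47 ± 1.09, Lmx1a at 3.16 ± 1.77, Pax3 at 2.18 ± 0.257 and Dbx2 at 1.42 ± 0.346. From Msx2 down to Pax3 the ranges of neighbours in this order overlapped, and those of Zic1 and Msx2 and of Pax3 and Dbx2 did not.

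**Figure D4:**
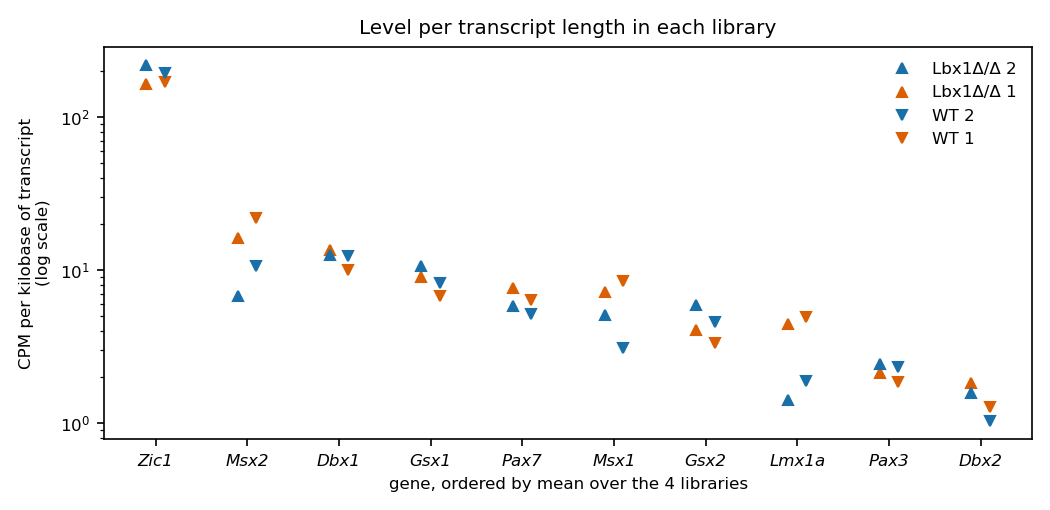
Level in CPM per kilobase of transcript (vertical axis, log scale) of each gene in each library, ordered by the mean. Upward triangles are libraries labelled Lbx1Δ/Δ, downward triangles WT, blue number 2 and orange number 1. Zic1 lies between 164 and 220.2, and Lmx1a spreads from 1.40 to 4.94.

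Within each library, one paralogue of each pair was the more abundant per kilobase. Gsx1 was 2.21 and 1.80 times Gsx2 in libraries 1 and 2 labelled Lbx1Δ/Δ, against 2.03 and 1.81 times in WT libraries 1 and 2. The genotypes overlapped in this ratio, which was lower in number 2 in both genotypes and was not tested. Dbx1 was 7.52 and 7.99 times Dbx2 in the libraries labelled Lbx1Δ/Δ, against 7.94 and 12.1 times in WT, where WT library 2 had the fewest Dbx2 counts. Msx2 was 2.24 and 1.33 times Msx1 in the libraries labelled Lbx1Δ/Δ, against 2.58 and 3.44 times in WT, so that both libraries labelled Lbx1Δ/Δ had lower ratios than both WT libraries. That ratio was chosen after its values were seen, and no test was run on it. Pax7 was 3.63 and 2.39 times Pax3 in the libraries labelled Lbx1Δ/Δ and 3.42 and 2.24 times in WT, lower in number 2 in both genotypes, with the level of Pax3 uncertain as above.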

How the data were processed

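RNA-seq of 4 neural tube pools was analysed. The submitters' processing notes name build mm9, TopHat2 2.1.1, featureCounts 4.6.0.1 and edgeR 3.4.3. The sources used here do not give the annotation, the strand setting or the handling of shared reads. The files deposited by the authors hold unnormalized counts per RefSeq accession, as their values show. The 41411 accessions were named from a RefSeq table of GRCm38 (41218) or GENCODE (97), with 96 left as features of their own, and summed per symbol. CPM are relative to the library total. Genes were filtered with edgeR's filterByExpr (minimum count 10, minimum total 15), scaled with TMM and tested two-sided with glmQLFit and glmQLFTest (edgeR 4.0.16, R 4.3.3, Benjamini-Hochberg over 10757 genes, threshold 0.05), on genotype alone and, for number 2 minus number 1, on genotype and number together. SE is the difference divided by the root of F. The labels do not say whether pools numbered alike share a litter or whether the 2 pools of a genotype do, so p-values cover only the spread between these samples, which may be technical. Alternatives were RLE, upper-quartile and no scaling, other filters, DESeq2 1.42.0, limma-voom (limma 3.58.1), unsummed accessions, a replicate block and leaving out each library. The genes and lists were chosen with earlier results of these data known. All 10 genes, Lbx1, and from each other list the genes called or with the smallest p could be named, and a single gene among them is not reported here. Those named outside this rule, such as Wnt1, Axin2 and Olig3, were chosen after their values were seen.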

Additional observations from a re-analysis of the deposited data

How the results depend on the processing

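Between genotypes, 0 of the 10 genes were called under any setting run. With the replicate number as a block, 92 of all genes were called (0.855%), against 0 without it, and Lbx1 passed (1.88, edgeR adjusted p = 1.19e-06). The labels do not pair the numbers, although the deviations of libraries of the same number from their group means correlated over genes (r = 0.657). With the block, Msx2 had a difference of −0.55 (SE 0.15, adjusted p = 0.0950) and Gsx1 one of 0.38 (SE 0.17, adjusted p = 0.362), and 2 of the 10 genes had an unadjusted p below 0.05, against 1359 of all 10757 genes. Leaving out 1 library moved the median genotype difference of the 10 genes between 0.19 and 0.27, from 0.17. It turned the genotype direction of Pax3 (−0.012 to 0.28), Msx1 (−0.48 to 1.0), Msx2 (−1.28 to 0.12), Lmx1a (−1.30 to 0.64) and Zic1 (−0.16 to 0.25). The values of Pax7 (0.012 to 0.42), Gsx1 (0.26 to 0.52), Gsx2 (0.045 to 0.57), Dbx1 (0.088 to 0.37) and Dbx2 (0.40 to 0.73) stayed above 0.

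Between numbers, 3 to 5 of the 10 genes were called, with 4 as reported. Zic1 was lost on number alone, and Pax7 was gained under 3 settings. The calls over all genes ran from 2592 by DESeq2 to 4270 with accessions not summed, against 3833. Leaving out 1 library gave medians of −0.19 to −0.045, against −0.10, with no residual degrees of freedom and so no test. No scaling moved the median of all genes by as much as 0.1. The fewest counts, 60 to 108, were those of Dbx2.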
